A study of Rattus norvegicus with 10 samples.

Results

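The circadian clock genes measured here were Dbp, Nr1d1, Bmal1 (formerly Arntl) and Per2, followed across 10 rat lacrimal glands. Every probe set that the array's platform annotation assigns to 1 of these 4 symbols was taken, which gave 7 of the 8740 probe sets that are not array controls: 2 for Dbp, 2 for Nr1d1, 2 for Bmal1 and 1 for Per2. The genes were selected on the measured intensities of Dbp and Bmal1, which set 3 glands, contralateral 1, sham and denervated 1, apart from the other 7. The values that separate these 3 glands from the rest are therefore given as a description, with no test. All 7 probe sets passed the filter on low values, a mean log2 intensity above 8.32.

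The lacrimal gland secretes the watery layer of the tear film, and the greater superficial petrosal nerve carries its parasympathetic supply. Denervated glands (n = 5) were collected 7 days after section of this nerve, contralateral control glands (n = 3) at the same interval, a sham-operated gland (n = 1) 7 days after its operation, and an unoperated gland (n = 1) from an animal without surgery. For the 3 contralateral glands the labels conflict, since the titles say contralateral and the descriptions ipsilateral to the operated side, and the titles were used here. The labels name no strain, sex, age or hour of collection, and do not state that the glands of a group are from separate animals. The p-values therefore reflect only the variation among these samples, which may be technical. In whole glands, fewer cells of a type and less RNA per cell cannot be told apart.

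The clock is a feedback loop of transcription that runs in most mammalian cells. BMAL1, with its partner CLOCK, binds E-boxes and switches on its own repressors, the PER and CRY proteins, as well as Nr1d1 and Dbp. NR1D1 (REV-ERB alpha) in turn silences Bmal1 through ROR elements, and DBP, a PAR bZIP transcription factor, carries the rhythm to output genes through D-boxes. In tissues where the loop has been followed over the day, Bmal1 messenger RNA is high when Dbp and Nr1d1 are low. The loop is also set by feeding, glucocorticoids and nerve input. This is background, and the phase of these glands was not measured.

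The promoters of the genes are shown because the loop is wired through them. The 250 bases before each annotated start are printed, from RefSeq on GRCr8, with matches to clock motifs in capitals. All 4 genes were found in the promoter table, Nr1d1 with 2 starts, of which the second is shown.
Bmal1, chr1:176766078-176766327, + strand: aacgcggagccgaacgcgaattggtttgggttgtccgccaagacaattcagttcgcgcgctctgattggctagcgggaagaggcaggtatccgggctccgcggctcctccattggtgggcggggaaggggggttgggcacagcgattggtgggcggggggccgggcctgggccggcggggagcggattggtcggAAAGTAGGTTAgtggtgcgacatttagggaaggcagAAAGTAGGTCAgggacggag
Per2, chr9:99496994-99497243, - strand: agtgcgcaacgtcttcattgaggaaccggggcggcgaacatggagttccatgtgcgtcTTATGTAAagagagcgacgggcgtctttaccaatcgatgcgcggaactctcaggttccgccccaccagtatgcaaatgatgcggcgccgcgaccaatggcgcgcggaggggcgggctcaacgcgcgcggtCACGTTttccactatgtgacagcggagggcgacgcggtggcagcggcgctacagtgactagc
Nr1d1, second start, chr10:84229455-84229704, - strand: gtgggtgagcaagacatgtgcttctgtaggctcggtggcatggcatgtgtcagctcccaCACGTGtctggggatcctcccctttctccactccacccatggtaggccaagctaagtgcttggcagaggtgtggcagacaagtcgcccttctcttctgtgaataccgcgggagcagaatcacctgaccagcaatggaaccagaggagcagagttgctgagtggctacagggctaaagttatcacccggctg
Dbp, chr1:105312006-105312255, + strand: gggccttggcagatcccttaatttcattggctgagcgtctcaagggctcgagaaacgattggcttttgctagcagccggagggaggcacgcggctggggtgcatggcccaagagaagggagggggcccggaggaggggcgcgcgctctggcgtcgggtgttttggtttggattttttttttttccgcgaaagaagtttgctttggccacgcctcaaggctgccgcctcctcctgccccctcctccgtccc

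The Bmal1 promoter held an extended ROR element at 2 places, AAAGTAGGTTA from -56 to -46 and AAAGTAGGTCA from -20 to -10 relative to the start. Over all 33469 windows of the same kind (250 bases before and 50 after a start, both strands), 0.0359% held this motif, whose letters were chosen with the sequence in view. The second copy overlaps the shorter form TNGGTCA, which 11.1% of windows held. The Per2 promoter held the D-box TTANGTAA at -192 to -185, a motif in 2.24% of windows, and the E-box-like CACGTT at -62 to -57, in 4.83%. The second Nr1d1 start had the E-box CACGTG at -191 to -186, a motif in 6.42% of windows. The first Nr1d1 start had CACGTT at -174 to -169 on the opposite strand. No match to these motifs lay in the Dbp window, which says only that these letters are not in it. A match is a description of the sequence and not a measured binding site.

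Dbp, the output factor, spanned the widest log2 range at 1 of its 2 probe sets, 5.52 at J03179_g_at. The range was 5.09 at J03179_at, against 5.47 at M25804_at of Nr1d1. The Dbp probe set with the higher mean, J03179_g_at, had intensities of 232.5, 1840 and 2216 in contralateral 1, 2 and 3, of 7191 in the unoperated gland, of 106.1 in the sham gland, and of 291.1, 4599, 2702, 4079 and 3873 in denervated 1 to 5. The sham gland, contralateral 1 and denervated 1 were the 3 lowest, and no value lay between 291.1 and 1840. The second probe set, J03179_at, read 165.6, 528.3 and 1556 in the contralateral glands, 4512 in the unoperated gland, 144.4 in the sham gland, and 176.0, 2542, 2328, 2467 and 5331 in the denervated glands. The same 3 glands were again lowest, here with contralateral 2 closest to them. The sham gland was under the floor of 156.2, below which intensities carry no order, at both probe sets, so the unoperated gland was at least 46.0-fold above it at J03179_g_at. Both probe sets read the same transcript record and are not independent measurements.

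**Figure D1:**
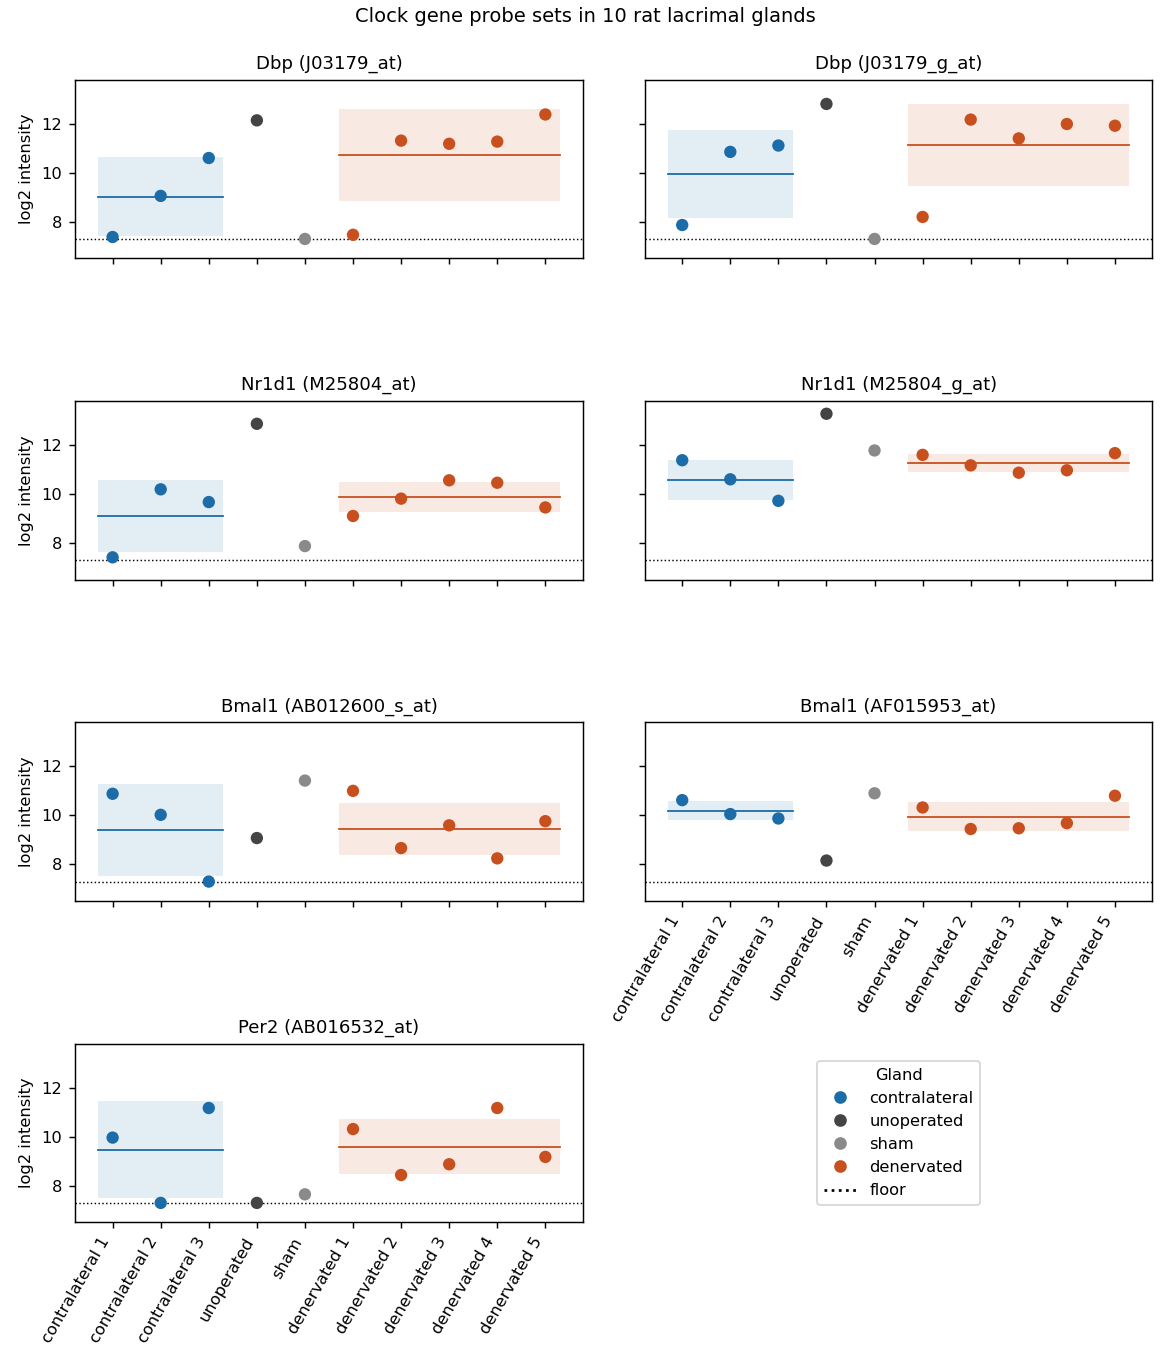
Log2 intensity (y axis) of the 7 clock gene probe sets in each of the 10 glands (x axis), with values under the floor set to it (dotted line). Points are single glands, and lines with shaded bands are the mean ± SD of the contralateral (n = 3) and denervated (n = 5) glands. At J03179_g_at of Dbp the sham gland, contralateral 1 and denervated 1 lie between 7.29 and 8.19 and the other glands between 10.85 and 12.81.

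Bmal1, the activator, was highest in those same 3 glands at 1 of its probe sets. AB012600_s_at had intensities of 1888, 1039 and 88.7 in contralateral 1, 2 and 3, of 537.2 in the unoperated gland, of 2737 in the sham gland, and of 2050, 403.6, 769.6, 302.2 and 865.7 in denervated 1 to 5. The sham gland, denervated 1 and contralateral 1 were the 3 highest, and contralateral 3 was under the floor. The other probe set, AF015953_at, read 1570, 1059 and 937.0 in the contralateral glands, 283.4 in the unoperated gland, 1907 in the sham gland, and 1278, 693.5, 710.0, 821.8 and 1787 in the denervated glands. Here denervated 5 lay between the sham gland and contralateral 1, so the 3 glands overlapped the other 7. The probe sets also differed at the low end, where contralateral 3 was lowest at AB012600_s_at and the unoperated gland at AF015953_at.

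Nr1d1, the repressor of Bmal1, gave 2 different pictures. M25804_at had intensities of 169.8, 1167 and 817.3 in the contralateral glands, of 7506 in the unoperated gland, of 233.5 in the sham gland, and of 550.1, 900.5, 1510, 1408 and 697.6 in the denervated glands. Contralateral 1, the sham gland and denervated 1 were lowest, as for Dbp. M25804_g_at read 2659, 1555 and 846.0 in the contralateral glands, 9966 in the unoperated gland, 3509 in the sham gland, and 3098, 2309, 1875, 2004 and 3264 in the denervated glands. At this probe set the sham gland came next after the unoperated gland, followed by denervated 5, denervated 1 and contralateral 1, so the 3 glands were not low. Both placed the unoperated gland first, by a wide margin.

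Per2, a repressor in the PER and CRY complex, followed none of these orders. Its probe set AB016532_at had intensities of 996.3, 140.4 and 2307 in the contralateral glands, of 136.2 in the unoperated gland, of 199.4 in the sham gland, and of 1269, 344.1, 468.3, 2312 and 577.0 in the denervated glands. Denervated 4 and contralateral 3 were highest. The unoperated gland and contralateral 2 were under the floor and the sham gland just above it, so 2 of the 3 glands that stood low for Dbp, contralateral 1 and denervated 1, were among the 4 highest here.

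In all, the 3 glands lay below the other 7 at 3 of the 7 probe sets and above them at 1. The values inside and outside this division were 8.19 against 10.85 (log2) at J03179_g_at, 7.46 against 9.05 at J03179_at, 9.10 against 9.45 at M25804_at, and 10.88 against 10.02 at AB012600_s_at. Across all 6118 tested probe sets these 3 glands lay below the other 7 at 4.46%, above them at 9.09% and to either side at 13.6%. This division chose the genes, so nothing is read from the count. The SD of log2 intensity over the 10 glands was 2.03 and 2.01 for Dbp, 1.52 and 0.92 for Nr1d1, 1.31 and 0.82 for Bmal1 and 1.49 for Per2, against a median of 0.82 over the tested probe sets.

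Other measurements moved with the same 3 glands. Dnase1 (U76635mRNA_g_at), a secreted nuclease, had intensities of 621186, 721537 and 329146 in contralateral 1, the sham gland and denervated 1, and of 761.5 to 15271 in the other 7. Of 13 marker lists of gland and other cell types, the summed intensity of the 3 glands lay above the other 7 for 3 and below them for 1. The list below was myoepithelium and smooth muscle, contractile cells, whose 7 measured genes of 7 summed to 10650 to 14630 in the 3 glands and 22510 to 91290 in the others. Of these genes 4 lay wholly below, while Cnn1, Krt14 and Tagln overlapped. Krt14 had log2 intensities of 11.58 to 11.92 in the 3 glands and 10.97 to 13.14 in the others. The lacrimal acinar list (9 of 11 measured) summed to 455500 to 791800 against 90210 to 278300, but Dnase1 made up most of the sum in the 3 glands. The other 8 acinar genes summed to 70230 to 147700 in the 3 glands and 78500 to 263000 in the others, which overlap, and Gp2 and Csap1 of this list lay wholly below the other 7. Lymphocyte markers (5 of 7 measured, 1 of them wholly above) summed to 4681 to 6801 against 1657 to 4118. Asmt with Aanat, enzymes of melatonin synthesis, formed the list for the Harderian gland and melatonin (2 of 2 measured, only Asmt wholly above). They summed to 1662 to 3237 against 441.1 to 1264. Of the 61 marker genes measured, 0 were at the floor in all glands. For GAPDH the array carries control probe sets at both ends of the transcript, and the log2 ratio of the 3' one over the 5' one, a measure of RNA integrity, was -0.64 to -0.18 in the 3 glands and 0.01 to 0.35 in the other 7, while the same ratio overlapped for beta-actin (0.61 to 0.95 against 0.19 to 1.14) and hexokinase (-1.33 to 2.23 against -0.23 to 1.65). Correlations between arrays were 0.851 to 0.898 within the 3 glands, 0.752 to 0.912 within the other 7 and 0.715 to 0.821 between them. Fewer tested probe sets were at the floor in contralateral 1, the sham gland and denervated 1 (259, 173 and 194) than in the other 7 (272 to 488). The part of these differences in the Dbp and Bmal1 values was not tested.

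The first comparison asked whether clock gene levels differed between denervated and control glands. No clock probe set passed the test, and at each of the 7 the denervated and control glands overlapped. Over all tested probe sets every denervated gland lay above every control gland at 0.637% and below at 1.03%. The denervated glands averaged a log2 intensity of 11.13 ± 1.67 (SD, n = 5) for Dbp at J03179_g_at, and the control glands averaged 9.98 ± 2.33 (SD, n = 5), which is a difference of 1.15 ± 1.00 (SE). The adjusted p from limma was 0.723, and at J03179_at the difference was 1.43 ± 1.00 with an adjusted p of 0.655. Nr1d1 differed by -0.10 ± 0.52 at M25804_g_at (adjusted p = 0.956, limma), a sign that turned with median scaling (0.026), and by 0.27 ± 0.83 at M25804_at (adjusted p = 0.930, limma). Bmal1 differed by 0.03 ± 0.53 at AF015953_at (adjusted p = 0.989, limma) and by -0.29 ± 0.75 at AB012600_s_at (adjusted p = 0.917, limma). For Per2 the means were 9.59 ± 1.13 (SD, n = 5) and 8.67 ± 1.79 (SD, n = 5), and the difference was 0.92 ± 0.81 (SE, limma adjusted p = 0.725). The exact permutation test of each difference, two-sided, gave p from 0.302 for Dbp at J03179_at to 0.976 for Bmal1 at AF015953_at, where 0.00794 is the smallest it allows.

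Over the whole array 0 of 6118 probe sets passed at an adjusted p under 0.05 in this comparison by limma (0%), and 9.68% had an unadjusted p under 0.05, while 0 of the 7 clock probe sets did. Without denervated 1 the number passing by limma was 70, with none of the 7 clock probe sets among them. Without the 3 glands that stand apart, which leaves 4 denervated and 3 control glands, the Dbp difference at J03179_g_at was 0.28 ± 0.44 (SE) and at J03179_at 0.94 ± 0.61. In the same fit Nr1d1 at M25804_at turned to -0.84 ± 0.68 and Bmal1 at AB012600_s_at to 0.27 ± 0.74. The 3 glands left out were the lowest at both Dbp probe sets and at M25804_at, and the highest at AB012600_s_at. Dropping them therefore shapes these differences and their SE, which are a description with no test. Leaving out single glands moved the J03179_g_at difference from 0.48 (without the sham gland) to 1.89 (without denervated 1), with a lowest adjusted p of 0.288 from limma over these fits.

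**Figure D2:**
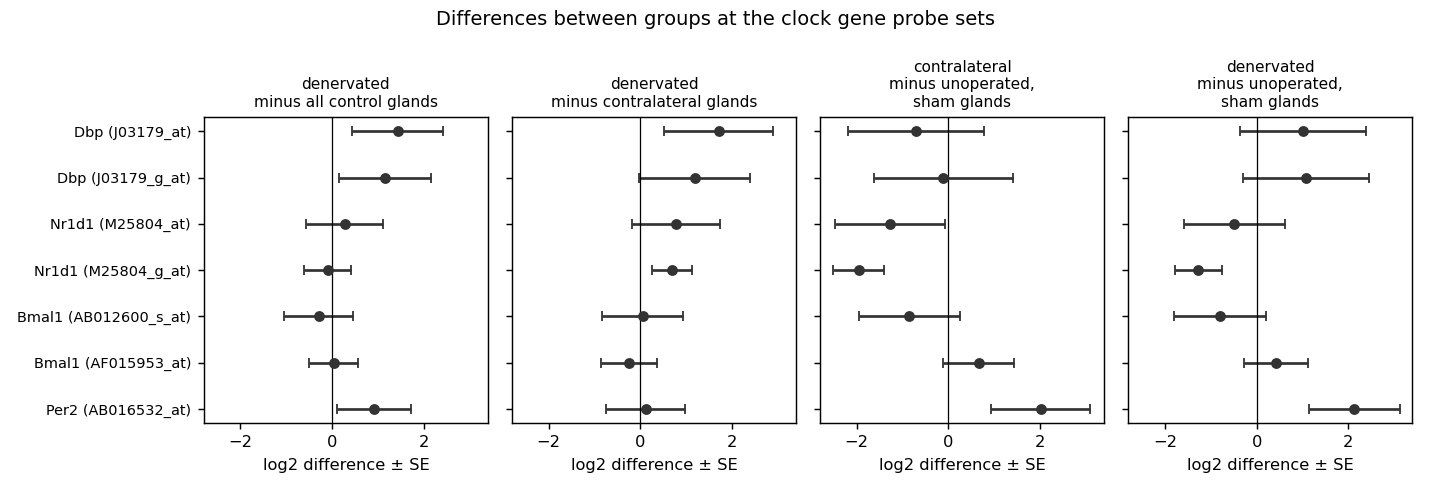
Log2 difference (x axis, ± SE from limma) at each clock gene probe set (y axis) in the 4 comparisons. The widest intervals belong to Dbp, for example 1.15 ± 1.00 for J03179_g_at in denervated minus all control glands, and M25804_g_at of Nr1d1 lies at -1.96 ± 0.56 in contralateral minus unoperated and sham glands.

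Set against the contralateral glands alone, the 4 genes again did not pass. Dbp differed by 1.19 ± 1.21 at J03179_g_at and 1.71 ± 1.19 at J03179_at, with limma adjusted p of 0.843 and 0.798. Nr1d1 differed by 0.69 ± 0.44 and 0.79 ± 0.96 at M25804_g_at and M25804_at, Bmal1 by -0.24 ± 0.61 and 0.05 ± 0.88 at AF015953_at and AB012600_s_at, and Per2 by 0.12 ± 0.86. In this comparison 0% of the 6118 probe sets passed by limma and 7.16% had an unadjusted p under 0.05. The comparison shares its denervated glands with the first one, so the 2 sets of differences are not independent.

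Among the control glands the unoperated gland was the extreme one for Nr1d1. The contralateral glands averaged 10.57 ± 0.83 (log2, SD, n = 3) at M25804_g_at, against 13.28 in the unoperated and 11.78 in the sham gland. The difference between contralateral glands and the unoperated and sham glands as 1 class was -1.96 ± 0.56 (SE), with an unadjusted p of 0.00366 and an adjusted p of 0.967 from limma. It was the only one of the 7 clock probe sets with an unadjusted p under 0.05 in this comparison, where 4.89% of all tested probe sets had one, 3.37% in the lower direction, and 0% passed. Without the unoperated gland it was -1.21 and without the sham gland -2.72. At M25804_at the difference was -1.28 ± 1.20, with the sham gland at 7.87 near the lowest contralateral gland at 7.41. Denervated glands differed from the unoperated and sham glands by -1.27 ± 0.51 at M25804_g_at (unadjusted p = 0.0265, adjusted p = 0.616, limma), in a comparison where 7.89% of probe sets had an unadjusted p under 0.05, 4.51% in the lower direction, and 0% passed. Without the unoperated gland this value was -0.52 and without the sham gland -2.03. Per2 was higher than in the unoperated and sham glands by 2.13 ± 0.99 in denervated (unadjusted p = 0.0508, adjusted p = 0.616, limma) and 2.01 ± 1.08 in contralateral glands (adjusted p = 0.967, limma).

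The sham and unoperated glands, each a single gland, lay at opposite ends for Dbp at J03179_g_at and Bmal1 at AF015953_at. For Dbp at J03179_g_at the order of levels was unoperated (12.81), denervated (11.13 ± 1.67, SD, n = 5), contralateral (9.94 ± 1.81, SD, n = 3) and sham (7.29, the floor), and the denervated and contralateral means differed by less than either SD. For Bmal1 at AF015953_at it was sham (10.90), contralateral (10.18 ± 0.39, SD, n = 3), denervated (9.94 ± 0.60, SD, n = 5) and unoperated (8.15), where the 2 middle groups again differed by less than either SD. For Nr1d1 at M25804_g_at it was unoperated (13.28), sham (11.78), denervated (11.26 ± 0.36, SD, n = 5) and contralateral (10.57 ± 0.83, SD, n = 3), where the last 2 differed by less than the contralateral SD. For Per2 it was denervated (9.59 ± 1.13, SD, n = 5), contralateral (9.47 ± 1.99, SD, n = 3), sham (7.64) and unoperated (7.29, the floor), where the first 2 differed by less than either SD. With 1 gland each, the distance between sham and unoperated has no replicate check.

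Pearson's r and Spearman's rho of log2 intensity over the 10 glands describe how alike the profiles were. They carry no p here, since the 3 glands that chose the genes weigh heavily in them. The 2 Dbp probe sets had r = 0.96 and rho = 0.93, and r = 0.81 over the 7 other glands. Dbp at J03179_g_at ran opposite to Bmal1 at AF015953_at (r = -0.70, rho = -0.79), with r = -0.59 over the 7 other glands. The other Dbp probe set, J03179_at, had r = -0.59 with AF015953_at over 10 glands and -0.20 over the 7, so the opposition outside the 3 glands was not shared by both Dbp probe sets. Against AB012600_s_at of Bmal1, J03179_g_at had r = -0.77 over all 10 and -0.04 over the 7, and J03179_at had -0.73 and -0.05. That opposition therefore rests on the 3 glands. Nr1d1 at M25804_at ran opposite to Bmal1 at AF015953_at with r = -0.90 over 10 and -0.89 over 7 glands, the unoperated gland being highest for the first and lowest for the second, while M25804_g_at had r = -0.33 and -0.58 with AF015953_at. M25804_g_at and Dbp at J03179_g_at had r = 0.02 over 10 glands and 0.86 over 7, and with J03179_at these were 0.09 and 0.64. The 2 Nr1d1 probe sets had r = 0.32 and the 2 Bmal1 probe sets r = 0.54 over 10 glands. Per2 had r between -0.51 and 0.23 with every other clock probe set over 10 glands.

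**Figure D3:**
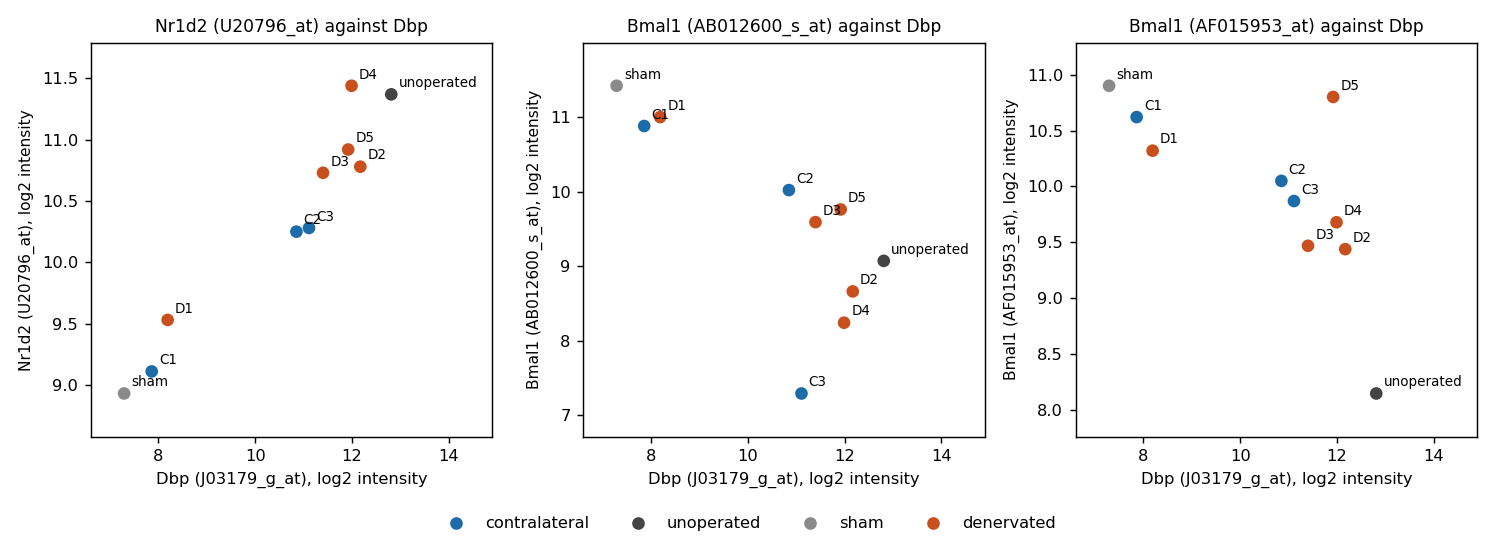
Log2 intensity of Dbp (J03179_g_at, x axis) against Nr1d2 and the 2 Bmal1 probe sets (y axes), 1 point per gland (C contralateral, D denervated, with the gland's number). Nr1d2 lies along the Dbp values in both sets of glands, while AB012600_s_at of Bmal1 separates sham, C1 and D1 (10.88 to 11.42) from the rest (7.29 to 10.02).

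Among 4910 single-symbol probe sets of other genes, searched over the 10 glands, Nr1d2 was second in likeness to Dbp. Nr1d2 encodes REV-ERB beta, the close relative of NR1D1, and its probe set U20796_at had r = 0.97 and rho = 0.94 with J03179_g_at, and r = 0.85 over the 7 other glands. Its log2 intensities were 9.11, 10.25 and 10.28 in the contralateral glands, 11.37 in the unoperated gland, 8.93 in the sham gland, and 9.53, 10.78, 10.73, 11.44 and 10.92 in the denervated glands. As for Dbp, the sham gland, contralateral 1 and denervated 1 were lowest. Nr1d2 differed by 0.69 ± 0.50 (SE) between denervated and control glands (limma adjusted p = 0.665).

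The gene most like Dbp was Jun, a subunit of the AP-1 transcription factor, with r = 0.97, rho = 0.94 and r = 0.93 over the 7 glands. Lrrc8a, a subunit of the volume-regulated anion channel, had r = 0.95, Gp2, a glycoprotein of secretory granule membranes, 0.94 and Hsd17b4, an enzyme of peroxisomal beta-oxidation, 0.94. Over the 7 glands the likeness fell to r = 0.59 for Lrrc8a, 0.21 for Gp2 and 0.74 for Hsd17b4. The levels of Gp2 were 8.59 to 9.30 (log2) in the 3 glands and 12.35 to 13.87 in the others. The most opposed genes were Cdk18 (r = -0.96), Ntrk3 (-0.94), Aldh1l1 (-0.94), Fhip2a (-0.94) and Foxm1 (-0.94). Over the 7 glands these values were -0.46, -0.66, -0.25, -0.32 and -0.87. Foxm1, a transcription factor of the cell cycle, had almost the reverse order of Dbp over the 10 glands (rho = -0.99). Cdk18 lay at 7.29 to 8.18 in the 7 glands, under the filter of 8.32. It entered the search only because the 3 glands were high, so its likeness is no support for a link with Dbp. In all, 237 of the 4910 had an r beyond 0.8 in either direction with Dbp.

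Bmal1 at AF015953_at, its probe set with the higher mean, was most like Myo1c (r = 0.94), a myosin that links membranes to actin, Stx7 (0.93), a syntaxin of endosomes, Or1ad6 (0.92), Camkk2 (0.92), a calcium-dependent kinase that activates AMPK, and Dglucy (0.90). It was most opposed to Slc15a4 (r = -0.90), a lysosomal peptide and histidine transporter, Ddr1 (-0.89), a collagen receptor, Junb (-0.88), another AP-1 subunit, Dnaaf9 (-0.81) and Gnas (-0.81), the stimulatory G protein alpha subunit. These values ranged from 0.90 to 0.93 in favour and from -0.91 to -0.81 against over the 7 glands. The 7 include the unoperated gland, which was lowest at AF015953_at (8.15) and weighs heavily in both sets of values. For Bmal1 55 of 4910 probe sets had an r beyond 0.8.

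Nr1d1 at M25804_g_at was most like Ier3 (r = 0.91), an immediate early gene, Rab11a (0.89), a GTPase of recycling endosomes, and Mxd4 (0.88). It was most opposed to Lig3 (-0.92), a DNA ligase, Canx (-0.90), a chaperone of the endoplasmic reticulum, and Slc25a3 (-0.88), the mitochondrial phosphate carrier. The unoperated gland, at 13.28 against 9.72 to 11.78 in the others, weighs heavily in these r values. In the same order, rho was 0.98, 0.68 and 0.81, and -0.90, -0.82 and -0.66. Per2 was most like Psma7 (r = 0.84), a proteasome subunit, Tpd52 (0.83) and Pcyt1a (0.76), an enzyme of phosphatidylcholine synthesis, and most opposed to Ptk2 (-0.89), the focal adhesion kinase, Basp1 (-0.87) and Ndufa6 (-0.83), a subunit of respiratory complex I. Only 30 probe sets for Nr1d1 and 7 for Per2 had an r beyond 0.8. The 10 points of each comparison share arrays and scaling, so these are descriptions.

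The rest of the clock was covered in part. Of 65 genes in 7 lists by role, 35 had a single-symbol probe set and 27 a tested one. None of the 3 activators Clock, Npas2 and Bmal2 had such a probe set. Of 7 further repressors 2 had one, Bhlhe40 and Bhlhe41, which encode the DEC repressors. Bhlhe41 had log2 intensities of 7.29, 9.37 and 9.73 in the contralateral glands, 10.90 in the unoperated gland, 9.85 in the sham gland, and 7.40, 10.61, 10.78, 11.03 and 10.45 in the denervated glands. It was thus low in contralateral 1 and denervated 1 with Dbp, but not in the sham gland. Bhlhe40 ran from 8.73 in contralateral 2 to 10.75 in denervated 3. Bhlhe41 and Bhlhe40 differed by 0.63 ± 0.75 and 0.62 ± 0.40 (SE) between denervated and control glands.

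Of the other PAR bZIP factors, which bind D-boxes as DBP does, Tef ran from 9.95 in denervated 5 to 11.69 in denervated 1, and Hlf differed between its probe sets. Hlf at S79817mRNA_at was 9.37, 10.11 and 9.34 in contralateral 1, sham and denervated 1 and 9.62 in contralateral 2, against 7.29 to 8.65 in the other glands. At S79820_at it was highest in the unoperated gland (10.70), denervated 5 (10.58) and sham (10.01), and differed between contralateral glands and the unoperated and sham glands by -1.95 ± 0.89 (unadjusted p = 0.0478, adjusted p = 0.967, limma). Neither Tef nor Hlf therefore had the order of Dbp.

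Crem, whose products include the cyclic AMP repressor ICER, was a modifier with several probe sets. At its 4 tested probe sets of 4, contralateral 1, sham and denervated 1 were the 3 highest glands, with log2 intensities of 11.08, 10.82 and 9.99 at S66024_at, where the others had 7.29 to 9.29. Only S66024_at had a clear gap. There 4 glands were at the floor, none of them among the 3, and the mean of the others lay under the filter of 8.32. This probe set was thus tested only because the 3 glands were high, and its gap is no support for a difference. The margin was 11.57 in the sham gland against 11.56 in contralateral 3 at S66024_g_at, 10.49 in the sham gland against 10.45 in contralateral 2 at U04835_at, and 9.84 in contralateral 1 against 9.81 in contralateral 3 at Z15158mRNA_at. Crem differed by -1.22 ± 0.79 (SE) between denervated and control glands at S66024_g_at (limma adjusted p = 0.639). Over the 45 tested probe sets of the lists, the 3 glands were lowest at 2 (4.44%), those of Nr1d2 and Cebpd, and highest at 7 (15.6%), against 4.46% and 9.09% of all tested probe sets. These 7 were the 4 of Crem and 1 each of Avp, Ppard and Cebpd, and Cebpd, a glucocorticoid-responsive factor, was thus lowest at 1 probe set and highest at another. They include S66024_at, tested only through the 3 glands, so nothing is read from this share.

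**Figure D4:**
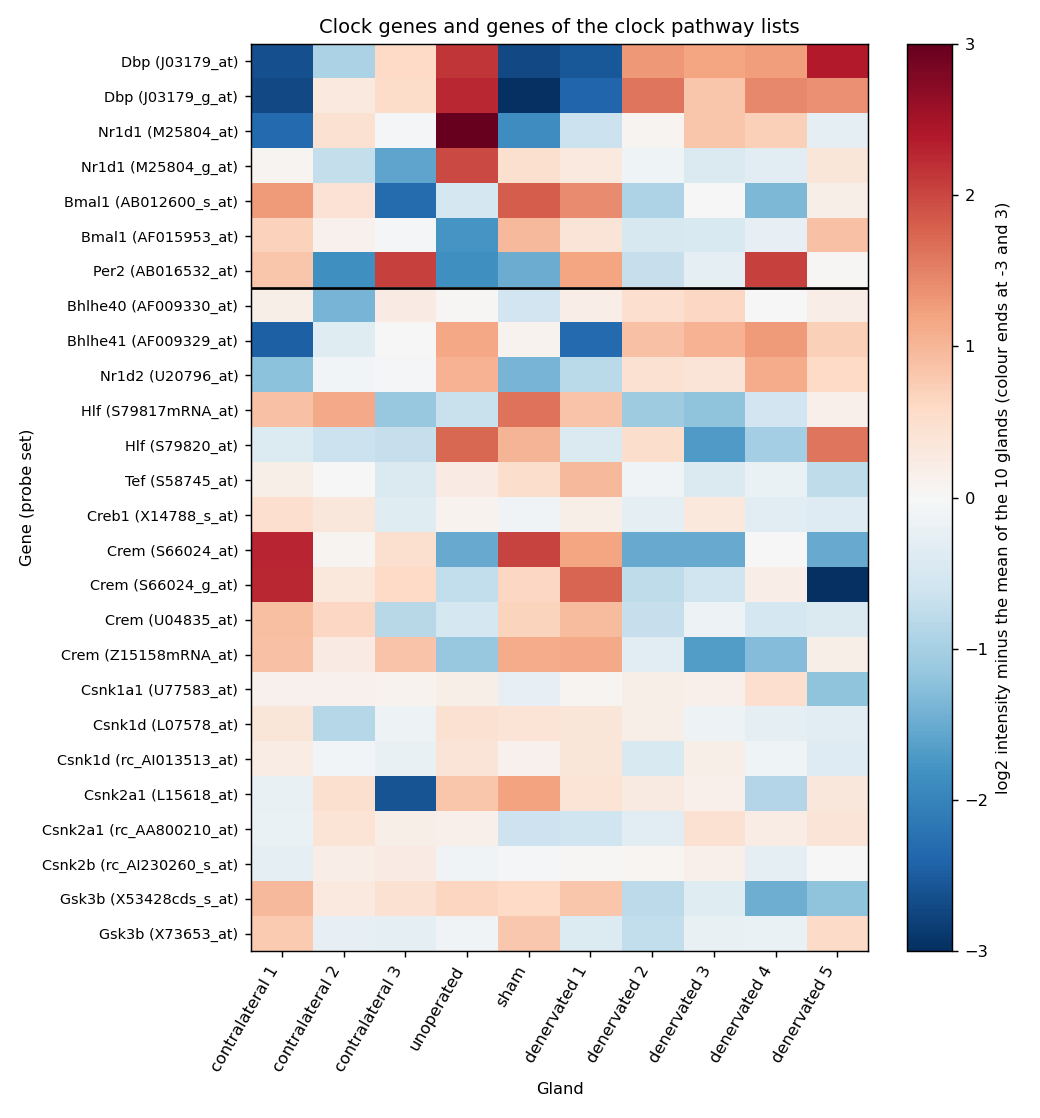
Log2 intensity minus the mean of the 10 glands (colour, ending at -3 and 3) for the 7 clock gene probe sets, above the black line, and the tested probe sets of repressors, REV-ERB, PAR bZIP factors and modifiers below it, by gland (x axis). Dbp and Nr1d2 are low and the 4 Crem probe sets highest in contralateral 1, sham and denervated 1.

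None of the 27 tested list genes passed in any comparison by limma, and between denervated and control glands 10 were higher and 17 lower, with a median log2 difference of -0.18 against -0.08 over all tested probe sets. At an unadjusted p under 0.05, 1 was higher, against 5.02% of all tested probe sets, and 1 lower, against 4.66%. The higher one was Pdk4, the kinase that shuts off pyruvate dehydrogenase and responds to glucocorticoids. It had log2 intensities of 9.05, 7.29, 10.08, 9.68 and 10.13 in denervated 1 to 5 and 7.29 to 7.80 in the control glands, a difference of 1.80 ± 0.59 (adjusted p = 0.437, limma), with denervated 2, contralateral 2 and the unoperated gland at the floor. Every control gland lay under 8.32, the filter on low values, so Pdk4 was tested only because denervated glands were high. Its p-values rest on that selection and are no support for a difference. Against contralateral glands alone Pdk4 and Gsk3b at X53428cds_s_at were again the 2 list genes at an unadjusted p under 0.05 (0.0198 and 0.0443, limma), where 4.15% of all tested probe sets were higher and 3.01% lower at that level. The lower one was Gsk3b, a kinase that phosphorylates clock proteins, by -1.19 ± 0.44 at X53428cds_s_at (adjusted p = 0.448, limma) and by -0.40 ± 0.41 at its other probe set. Sgk1, a kinase induced by glucocorticoids, differed by 1.44 ± 0.68 from control glands and by 2.30 ± 0.85 from the unoperated and sham glands (unadjusted p = 0.0182, adjusted p = 0.616, limma), a comparison in which 3.38% of all tested probe sets were higher at an unadjusted p under 0.05. Between denervated and all control glands the median was 0.56 for the 7 tested glucocorticoid-responsive genes, -0.37 for the 8 known clock outputs and -0.18 for the 7 modifiers. Of the glucocorticoid-responsive genes 4 were higher and 3 lower, the lower ones being Klf9 (-0.12), Cdkn1a (-0.41) and Cebpd (-0.73). Other Cebpd probe sets gave 1.14 and 1.10. The median of 0.56 is the value of Nr3c1, whose other tested probe set gave -0.46, so no shift of the list is read from it.

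Among the known clock outputs, Alas1, the first enzyme of haem synthesis, had 2 tested probe sets. At J03190_at, the one with the higher mean, its log2 intensities were 14.72, 15.83 and 15.79 in the contralateral glands, 16.58 in the unoperated gland, 13.15 in the sham gland, and 15.34, 15.05, 15.76, 16.56 and 14.10 in the denervated glands. The sham gland was lowest and the unoperated gland highest, as for Dbp, but denervated 5 lay below contralateral 1 and denervated 1. At J03190_g_at the sham (12.08) and unoperated (15.61) glands were again at the ends, and there denervated 5 (14.44) lay above contralateral 1 (12.97) and denervated 1 (14.07). Alas1 at J03190_at and J03190_g_at had r = 0.62 and 0.84 with Dbp over 10 glands and 0.12 and 0.26 over the 7. Cirbp, a cold-inducible RNA-binding protein, ran from 7.29 in denervated 4 to 10.88 in denervated 3, and Wee1, a kinase that holds back mitosis, from 8.29 in denervated 1 to 10.20 in contralateral 1. The differences between denervated and control glands were 0.15 ± 0.57 (J03190_at), 0.90 ± 0.73 and -0.56 ± 0.44 (SE) for Alas1, Cirbp and Wee1, with limma adjusted p of 0.944, 0.702 and 0.685.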

How the data were processed

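RNA of 10 glands was measured on rat oligonucleotide arrays. The deposited values are linear intensities for 8799 probe sets. No source used here names the authors' software. The 2% trimmed means of the arrays ran only from 2505 to 2507, so no further scaling was applied to the deposited intensities. A floor of 156.2, the 20th percentile over the table, was set before taking log2, and the 6118 probe sets with a mean above the 30th percentile were tested. Differences were fitted with limma 3.58.1 in R 4.3.3 (eBayes with a variance trend, two-sided, Benjamini-Hochberg over all tested probe sets, threshold 0.05), with 2 classes for denervated against all control glands and 3 classes for the other comparisons. Precision is limited by how few arrays there are, with a median SE of 0.50. In 10 simulations of denervated minus all control glands on 6118 probe sets, 16.1% of 2-fold and 65.2% of 4-fold changes were recovered. The changes were placed only in probe sets with a mean more than 2 above the log2 floor, which leaves out Per2 (mean 9.13). The noise was drawn independently for each gland. In the data the SE of Dbp in this comparison was 1.00, above that median, so these shares are no measure of recovery for Dbp or Per2.

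The members and lists were chosen with earlier results of these data known. Named besides the members, list genes and cell markers are the 5 genes most and least like Dbp and Bmal1 by Pearson's r, and 3 each for Nr1d1 and Per2, among tested probe sets at the floor in at most 3 glands. Each list gene is represented by its brightest probe set on average. Gene symbols came from the platform annotation. Promoter motifs were searched with Python 3.11.15. The choices varied were the scaling (quantile, median), the floor, the filter, the variance trend, weights for arrays, the number of probe sets per gene, blocking on the gland number, an exact permutation test, and which glands were left out. Figures were drawn with matplotlib 3.10.9.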

Additional observations from a re-analysis of the deposited data

Results flagged for a closer look

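In the denervated group (n = 5), 13 of 66 checked probe sets had 1 gland whose gap to its nearest neighbour exceeded 0.71 of the group's range, which chance gives for about 1 in 20 groups. Many of the checked probe sets were selected, Dbp because it sets denervated 1 and 2 other glands apart, and Jun, Gp2, Cdk18 and Aldh1l1 for their likeness to Dbp, so the count cannot be read against that rate. The same selection bears on how often denervated 1, in 8 of the 13, was the distant gland. It was lowest for Dbp, with a log2 intensity of 7.46 at J03179_at against 11.18 to 12.38 in the other 4 denervated glands, and of 8.19 at J03179_g_at against 11.40 to 12.17. It was also lowest for Bhlhe41 (7.40 against 10.45 to 11.03), Sgk1 (8.11 against 10.82 to 11.34), Jun (10.58 against 12.41 to 12.96) and Gp2 (8.59 against 12.35 to 13.87). It was highest for Cdk18 (10.26 against 7.29 to 7.37) and Aldh1l1 (11.07 against 8.96 to 9.49). Cdk18 passed the filter on low values only through the glands that stand apart. Denervated 5 was lowest for Csnk1a1 (11.37) and the transferrin receptor Tfrc (7.33). Denervated 3 was lowest for Avp (7.29), Ier3 (10.29) and Mxd4 (11.28).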

How the results depend on the processing

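Over 579 combinations of a clock gene comparison and an alternative, 533 kept their direction and 46 reversed, and none passed the threshold, with a lowest limma adjusted p of 0.17. All of the reversed values were differences that had not passed, and the causes were not tested. Without the 3 glands that stand apart, denervated minus all control glands turned to 0.268 for Bmal1 (AB012600_s_at) and -0.842 for Nr1d1 (M25804_at), and denervated minus unoperated and sham glands to -0.603 and -0.942 for the 2 Dbp probe sets. Those 3 glands are the extreme ones at these probe sets, so the values without them are a description. With the floor at the 30th percentile, denervated minus contralateral glands turned to -0.224 for Bmal1 (AB012600_s_at) and -0.158 for Per2. With array weights it turned to -0.083 for Bmal1 (AB012600_s_at), and denervated minus all control glands to -0.082 for Bmal1 (AF015953_at). For Dbp (J03179_g_at), contralateral minus unoperated and sham glands turned to 0.032 with median scaling, 0.169 with the floor at the 10th percentile and 0.371 with array weights, and Nr1d1 (M25804_g_at) turned to 0.026 with median scaling in denervated minus all control glands. Whether glands with the same number share an animal is not known from the labels. Deviations of contralateral and denervated glands numbered 1, 2 and 3 correlated at 0.488, 0.037 and 0.164, and contralateral 2 and 3 each correlated more with denervated 4 (0.183 and 0.232), so the fit without the block was kept. With the gland number as a random block (consensus correlation 0.313 with 2 classes and 0.348 with 3), the Dbp differences between denervated and control glands were 1.334 and 1.041. The block reversed Per2 (-0.017, denervated minus contralateral), Bmal1 at AF015953_at (-0.072) and Nr1d1 at M25804_g_at (0.064, both denervated minus all control) and Dbp at J03179_g_at (0.081, contralateral minus unoperated and sham), and it changed no call of a clock gene. The number of probe sets past the threshold, 0 in each comparison, became 1 for denervated minus contralateral glands without the variance trend, with array weights and with the block. Without the filter it became 7 for contralateral minus unoperated and sham glands and 13 for denervated minus unoperated and sham glands, which was also 13 without the 3 glands. Leaving out 1 gland gave 0 to 70 calls for denervated minus all control glands (70 without denervated 1), 0 for denervated minus contralateral glands, 0 to 1 for contralateral minus unoperated and sham glands (1 without the unoperated gland) and 0 to 5 for denervated minus unoperated and sham glands (5 without denervated 1). Leaving out 1 gland also moved the differences. For denervated minus all control glands the values ran from -0.899 to 0.134 for Bmal1 at AB012600_s_at, from 0.526 to 1.547 for Per2 at AB016532_at, from -0.415 to 0.272 for Bmal1 at AF015953_at, from 0.931 to 2.247 for Dbp at J03179_at, from 0.475 to 1.886 for Dbp at J03179_g_at, from -0.274 to 1.092 for Nr1d1 at M25804_at, from -0.503 to 0.387 for Nr1d1 at M25804_g_at. For denervated minus contralateral glands the values ran from -1.003 to 0.795 for Bmal1 at AB012600_s_at, from -0.975 to 0.967 for Per2 at AB016532_at, from -0.451 to -0.017 for Bmal1 at AF015953_at, from 0.897 to 2.530 for Dbp at J03179_at, from 0.153 to 1.930 for Dbp at J03179_g_at, from -0.055 to 1.336 for Nr1d1 at M25804_at, from 0.267 to 1.093 for Nr1d1 at M25804_g_at. For contralateral minus unoperated and sham glands the values ran from -2.021 to 0.328 for Bmal1 at AB012600_s_at, from 1.160 to 3.103 for Per2 at AB016532_at, from -0.718 to 2.032 for Bmal1 at AF015953_at, from -3.133 to 1.719 for Dbp at J03179_at, from -2.872 to 2.653 for Dbp at J03179_g_at, from -3.783 to 1.223 for Nr1d1 at M25804_at, from -2.715 to -1.209 for Nr1d1 at M25804_g_at. For denervated minus unoperated and sham glands the values ran from -1.970 to 0.379 for Bmal1 at AB012600_s_at, from 1.732 to 2.419 for Per2 at AB016532_at, from -0.954 to 1.796 for Bmal1 at AF015953_at, from -1.419 to 3.434 for Dbp at J03179_at, from -1.679 to 3.846 for Dbp at J03179_g_at, from -2.997 to 2.009 for Nr1d1 at M25804_at, from -2.026 to -0.520 for Nr1d1 at M25804_g_at. Without the sham or the unoperated gland, the other stands alone and is assumed to vary like the remaining groups. Median scaling moved the median difference of all probe sets from -0.079 to 0.042 for denervated minus all control glands, from -0.146 to 0.181 for contralateral minus unoperated and sham glands and from -0.17 to 0.144 for denervated minus unoperated and sham glands. The share of probe sets at an unadjusted p under 0.05 that were higher moved from 51.9% to 70.7%, from 31.1% to 69.7% and from 42.9% to 81.1%, and with quantile normalization the last 2 were 53.2% and 58.1%. Values at the floor of 156.2 have no order, which limits Dbp in the sham gland, Bmal1 in contralateral 3 and Per2 in 2 glands.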
